A study of Sus scrofa with 12 samples.

Results

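The orexin and melanin-concentrating hormone genes were examined in the hypothalamus of pigs from opposite ends of feed efficiency, a measure of how much growth an animal gains from its feed. All probe sets whose platform annotation gave the symbol HCRT, HCRTR1, HCRTR2, PMCH, MCHR1 or QRFP were taken, which gave 9 of the 47845 probe sets of the array, with at least 1 for each of the 6 genes, of 13755 gene symbols on the array. HCRT, HCRTR1 and HCRTR2 had 1 probe set each, and PMCH, MCHR1 and QRFP had 2 each. The members were taken by gene name, with earlier results of these data known. The study compared 6 pigs (Sus scrofa) of high with 6 pigs of low feed efficiency, and each group held 3 males and 3 females. All 12 pigs were 140 days old, and hypothalamus RNA of each was hybridised to 1 Affymetrix Snowball array, a whole-transcript pig array. No breed, diet, treatment or genotype was given in the labels. Within each group, replicates 1 to 3 were males and replicates 4 to 6 were females.

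Orexins, also called hypocretins, and melanin-concentrating hormone (MCH) are peptides made by separate sets of neurons that lie intermingled in the lateral hypothalamus. Orexin neurons promote wakefulness and food seeking through a pair of G protein-coupled receptors, and loss of orexin signalling causes narcolepsy in humans, dogs and mice. MCH neurons promote feeding and energy storage and, in rodents, are active in sleep, and MCHR1 couples to G proteins that inhibit adenylyl cyclase. QRFP encodes an RF-amide peptide that stimulates feeding in rodents and acts on another receptor, QRFPR.

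The piece of tissue carried strong signals of other hypothalamic genes. The genes of oxytocin (OXT) and vasopressin (AVP), both made in the paraventricular and supraoptic nuclei, had mean log2 signals of 11.80 and 11.55. Both lay above all 69 background probe sets of the array. Of 5 markers tested for these nuclei, 2 lay within the background range, CRH (4.37) and SIM1 (5.92). Of 6 arcuate markers tested, 5 lay within that range, AGRP and NPY (4.65 and 5.03) among them, while TAC3 (7.69) lay above it. Of 5 thalamic markers, TCF7L2 (7.72) and PRKCD (8.95) lay above the background probe sets and the other 3 within their range. Array medians lay between 4.35 and 4.42 and correlations between arrays between 0.963 and 0.975. In bulk tissue, fewer cells of a type and less RNA per cell cannot be told apart. The limma p-values below set a difference between groups against the spread between these pigs.

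HCRT and the first of the 2 PMCH probe sets had signals above every background probe set in every pig, while the second PMCH probe set and those of the receptors and QRFP lay in the range that background probe sets also reached. The 69 background probe sets had mean log2 signals from 1.30 to 7.49, higher where their probes held more G and C bases. HCRT, the precursor gene of both orexin peptides, had a mean signal of 8.29, above all 69, and it did so in 12 of 12 pigs. The first PMCH probe set (SNOWBALL_007551_st), for the MCH precursor, had a mean of 8.04 and was also above all 69 background probe sets in 12 of 12 pigs. In the lowest pig, high replicate 6, its signal was 7.23, and the highest background signal of an array lay between 7.22 and 7.70, so PMCH was only just above background there. Both lay in the upper tail of the array: 94.9% of probe sets had a lower mean than HCRT and 93.5% a lower mean than this PMCH probe set.

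The second PMCH probe set (SNOWBALL_022668_st) had a mean of 6.85 and lay above 55 of the 69 background probe sets. HCRTR2, the orexin receptor that binds both orexin peptides with like affinity, had a mean of 5.96 and lay above 48 of them. HCRTR1, the receptor that prefers orexin A, had a mean of 5.39 and lay above 46. The MCHR1 probe sets, for the MCH receptor, had means of 5.61 (SNOWBALL_006748_st, the first) and 4.92 (SNOWBALL_037961_st, the second) and lay above 48 and 45. The QRFP probe sets had means of 4.96 (SNOWBALL_003620_st, the first) and 4.12 (SNOWBALL_043868_st, the second) and lay above 45 and 42. None of these 7 probe sets exceeded all background probe sets in any pig. The G and C content of the members' own probes was not analysed here, so their distance from a matched background is unknown. All 9 probe sets had a mean above the limit of 2.43 that separated the dimmest 25% from the 35791 probe sets tested. For MCHR2, the other MCH receptor, the probe set had a mean of 2.05 and fell below that limit.

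**Figure D1:**
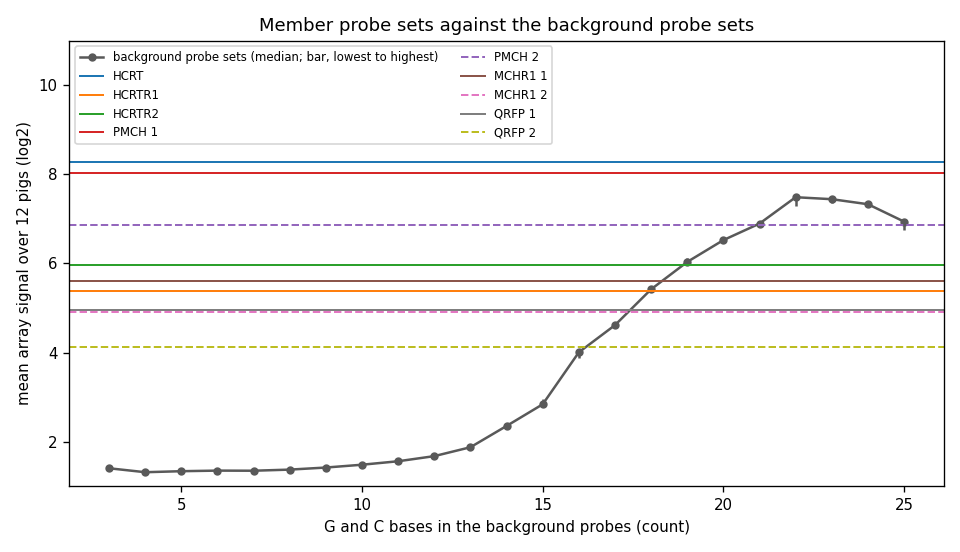
Mean log2 array signal over 12 pigs (vertical axis) of the background probe sets by the number of G and C bases in their probes (horizontal axis; grey points, median, with bars from lowest to highest), and of the 9 member probe sets (horizontal lines, since their own G and C count is not shown; 1 and 2 are the first and second probe set of a gene). The lines of HCRT at 8.29 and of the first PMCH probe set at 8.04 lie above every background point, and the other 7 lines cross the background curve.

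HCRT did not separate the feed efficiency groups. Its lowest, median and highest log2 signals were 8.10, 8.36 and 8.58 in the high group and 7.91, 8.32 and 8.51 in the low group. The groups overlapped, and the 2 lowest pigs, a male and a female at 7.91, were both of low feed efficiency. The means were 8.35 ± 0.17 and 8.22 ± 0.25 (SD, n = 6 each), a low minus high difference of -0.14 ± 0.12 (SE; 95% interval -0.41 to 0.13) with an adjusted p of 0.862 by limma. Without low replicate 6 the difference was -0.06.

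PMCH had nearly equal means in both groups, with 1 low pig in each. At the first probe set the lowest, median and highest log2 signals were 7.23, 8.12 and 8.38 in the high group and 7.55, 8.06 and 8.32 in the low group. At the second they were 6.14, 6.87 and 7.36 in the high group and 6.07, 6.99 and 7.17 in the low group. The lowest pig of each group was replicate 6, a female, at both probe sets, and the other 10 pigs of the groups overlapped throughout. The differences were -0.00 ± 0.19 (95% interval -0.42 to 0.41) and 0.03 ± 0.23 (95% interval -0.47 to 0.52), with adjusted p of 0.998 and 0.991 by limma. Without high replicate 6 the difference of the first probe set was -0.16, and leaving out 1 pig at a time moved it to at most 0.10.

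QRFP was slightly lower on average in the low group at both probe sets, within the spread. The first had lowest, median and highest log2 signals of 4.88, 5.01 and 5.22 in the high group and 4.41, 4.98 and 5.15 in the low group. The second ranged from 3.73 to 4.55 in the high group and from 3.81 to 4.36 in the low group. The groups overlapped at both, and the low value of 4.41 came from 1 male. The differences were -0.12 ± 0.12 and -0.11 ± 0.12 (SE), with adjusted p of 0.867 and 0.889 by limma.

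Neither orexin receptor separated the groups over all pigs. HCRTR1 had lowest, median and highest log2 signals of 5.12, 5.46 and 5.57 in the high group and 4.87, 5.46 and 5.66 in the low group. The medians were alike, the low group spanned the high group's range, and the difference was -0.01 ± 0.13 (SE; 95% interval -0.29 to 0.28; adjusted p 0.994 by limma). HCRTR2 had 5.90, 5.99 and 6.07 in the high group and 5.60, 5.97 and 6.20 in the low group. The low group reached both below and above the whole high group, with SDs of 0.27 and 0.07 (n = 6 each), and the difference was -0.06 ± 0.10 (SE; 95% interval -0.29 to 0.16; adjusted p 0.925 by limma).

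The first MCHR1 probe set had lowest, median and highest log2 signals of 5.53, 5.68 and 5.80 in the high group and 5.41, 5.50 and 5.85 in the low group. The low group had the lower median, but its replicate 6 was the highest of all pigs. The difference was -0.12 ± 0.09 (SE; 95% interval -0.32 to 0.07; adjusted p 0.840 by limma), and at the second probe set it was -0.09 ± 0.17 (adjusted p 0.936 by limma).

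**Figure D2:**
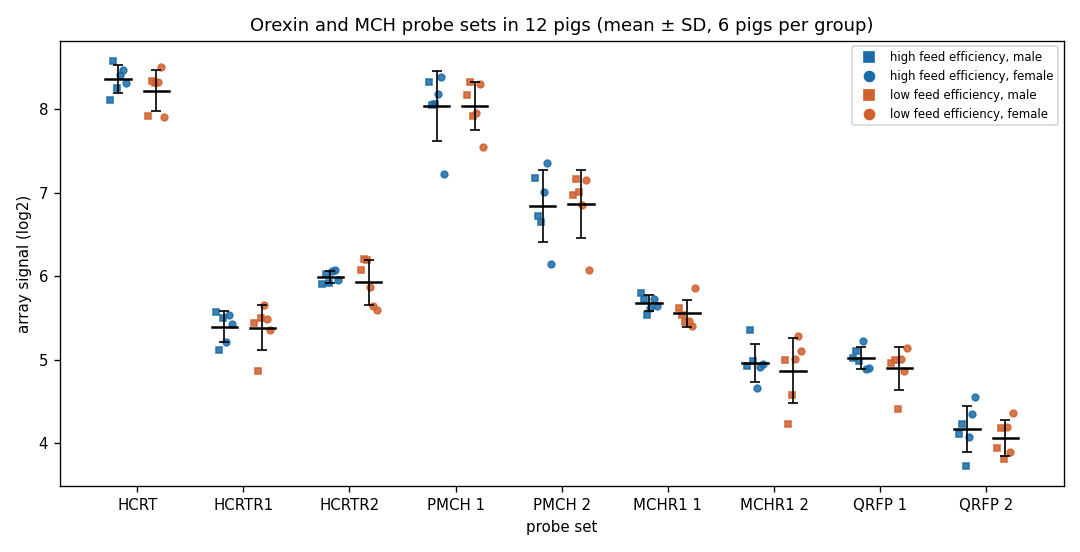
Log2 array signal (vertical axis) of the 9 probe sets (horizontal axis) in each pig, by feed efficiency (colour) and sex (squares, males; circles, females); black lines are group means and bars are SD over 6 pigs. The groups overlap at every probe set, and 1 pig in each group lies low at both PMCH probe sets.

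Counted together, 0 of the 9 probe sets passed the adjusted threshold of 0.05 for feed efficiency in limma, against 0.0% of the 35791 probe sets tested. At an unadjusted p under 0.05 the counts were 0 of 9 members and 2201 of all probe sets tested, 6.15%. Of the members, 8 had a lower and 1 a higher mean in the low group, with a median difference of -0.09 beside -0.00 over all probe sets tested. The members include probe sets of 1 gene and are not independent. The 6 high and 6 low pigs overlapped at all 9 probe sets, and 0.282% of all probe sets showed no overlap. Every one of the 9 intervals (95%) lay within a 1.5-fold difference in either direction, the widest of them reaching -0.47 at the second MCHR1 probe set and 0.52 at the second PMCH probe set. Differences smaller than these bounds could go undetected with this number of arrays.

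**Figure D3:**
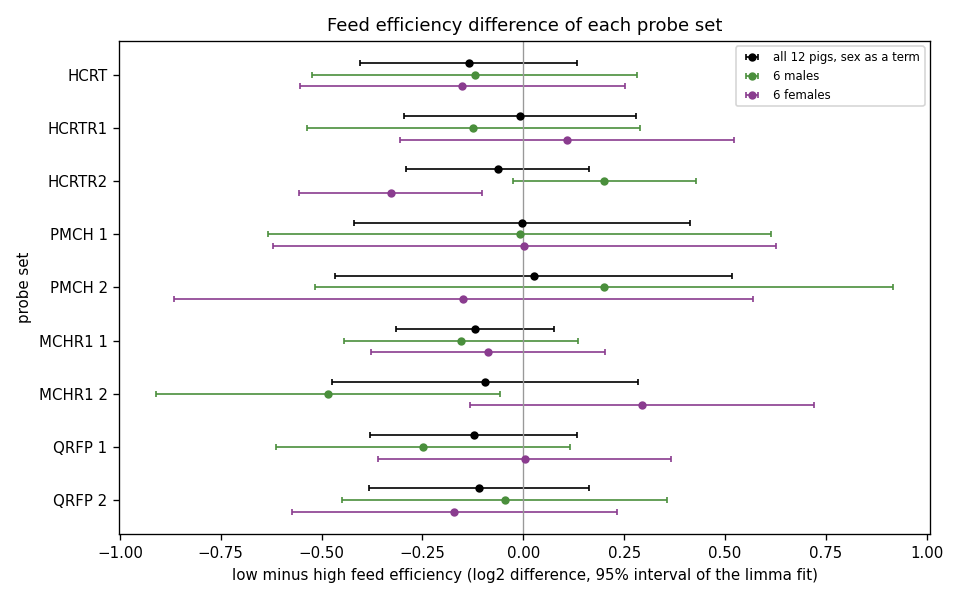
Low minus high feed efficiency (log2 difference, horizontal axis) of each probe set, with 95% intervals of the limma fits over all 12 pigs (black), within 6 males (green) and within 6 females (purple). All black intervals include 0, while the purple interval of HCRTR2 and the green interval of the second MCHR1 probe set do not before adjustment.

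No member passed the test for sex. In limma 0 of the 9 probe sets passed for sex, against 0.0224% of all probe sets tested, and at an unadjusted p under 0.05 the shares were 0 of 9 and 4.74%. The second QRFP probe set had a mean of 4.24 ± 0.23 in the 6 females and a lower one in the 6 males, a female minus male difference of 0.24 ± 0.12 (SE; adjusted p 0.996 by limma). At the first QRFP probe set, of higher mean signal, this difference was 0.09 ± 0.12 (SE; adjusted p 0.996 by limma). HCRTR2 had 5.87 ± 0.21 in the 6 females and 6.05 ± 0.13 in the 6 males (SD), a female minus male difference of -0.19 ± 0.10 (SE; adjusted p 0.996 by limma). Both PMCH probe sets had lower means in females, by -0.21 ± 0.19 and -0.18 ± 0.23 (SE), and the 2 lowest pigs at each were females. Sex was partly tied to the run of pig identifiers: all 6 males were in the lower of 2 runs, while females were in both. The 2 females lowest in PMCH were in the higher run.

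HCRTR2 had opposite feed efficiency differences in males and females, which did not pass adjustment over all probe sets. In males the log2 signals were 5.90, 6.03 and 5.92 in the high group and 6.07, 6.20 and 6.19 in the low group. In females they were 6.07, 6.07 and 5.96 in the high group and 5.87, 5.64 and 5.60 in the low group. Every low feed efficiency male was above every high one, and every low feed efficiency female was below every high one. This pattern, with no overlap in either sex and opposite directions, occurred at 0.581% of the 35791 probe sets tested, or 208 probe sets.

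The HCRTR2 difference was 0.20 ± 0.10 (SE) within males and -0.33 ± 0.10 (SE) within females in the limma fit of the 4 groups, with adjusted p of 0.610 and 1.000. The interaction, the female difference minus the male difference, was -0.53 ± 0.14 (SE; 95% interval -0.85 to -0.21), with an unadjusted p of 0.00398 and an adjusted p of 0.779. By its unadjusted p it ranked 178 of 35791. When 1 pig was left out at a time the interaction ranged from -0.61 to -0.48, and it passed adjustment in none of these fits. The females fall into 2 runs of pig identifiers, whose meaning the labels do not give. In the lower run the low female had 5.87 and the high female 6.07, and in the higher run the low females had 5.64 and 5.60 and the high females 6.07 and 5.96, so the direction was the same in both.

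Marker genes of other cells were set beside HCRTR2. Of 5 neuron markers tested, 3 had a negative interaction, with a median of -0.16, among them the synaptic gene SNAP25 (-0.40 ± 0.15, SE) and the neuronal RNA-binding gene ELAVL4 (-0.48 ± 0.19, SE), whose signal was within the background range. The interaction farthest from 0 in that list was positive, 1.14 ± 0.57 (SE) for RBFOX3, a splicing factor of mature neurons, also within the background range. All 4 choroid plexus markers had a positive interaction, with a median of 0.29, and TTR, the transthyretin gene, stood at 1.87 ± 0.63 (SE). The signals of all 4 lay within the background range. The mean log2 signal of the choroid plexus list lay at 5.50 to 5.79 in high males, 5.28 to 5.56 in low males, 5.03 to 5.37 in high females and 5.34 to 5.98 in low females. Of the mammillary and tuberomammillary markers, from a region rich in HCRTR2 in rodents, 5 of 6 were tested, with 3 negative and 2 positive interactions and a median of -0.13. LMX1A, a transcription factor gene, had -0.80 ± 0.31 (SE; unadjusted p 0.0254), and HDC, which makes histamine in tuberomammillary neurons, had 0.15 ± 0.37 (SE). All 5 lay within the background range. None of these marker genes passed adjustment, none was at 0, and their part in the HCRTR2 result was not tested.

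The second MCHR1 probe set had opposite signs in the sexes as well. In males its log2 signals were 4.92, 5.36 and 4.98 in the high group and 5.002, 4.23 and 4.58 in the low group. In females they were 4.66, 4.91 and 4.95 in the high group and 5.01, 5.28 and 5.11 in the low group. The females of low feed efficiency all lay above those of high feed efficiency, as a gap in either direction did at 8.64% of all probe sets, whereas the males overlapped. The interaction was 0.78 ± 0.27 (SE; unadjusted p 0.0161, adjusted p 0.783 by limma), but at the first MCHR1 probe set it was 0.07 ± 0.19 (SE; adjusted p 0.978 by limma). The probe sets of this gene therefore gave different values for the same contrast.

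Over the members, 0 of 9 passed adjustment for the interaction, against 0.0% of all probe sets, and 2 of 9 had an unadjusted p under 0.05, against 6.07%. Within males 0 of 9 passed, against 0.00838% of all probe sets, and within females 0 of 9, against 0.0%. HCRT had differences of -0.12 ± 0.18 in males and -0.15 ± 0.18 in females (SE), the same direction in both sexes. The first PMCH probe set had -0.01 ± 0.28 and 0.00 ± 0.28 (SE).

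**Figure D4:**
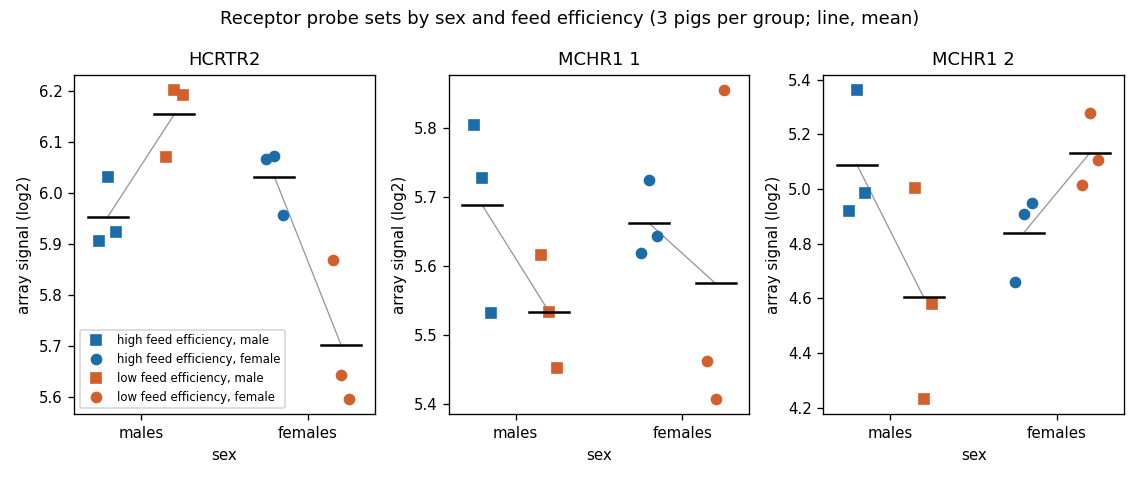
Log2 array signal (vertical axes, ranges differ and do not start at 0) of HCRTR2 and both MCHR1 probe sets by sex (horizontal axis) and feed efficiency (colour); each point is 1 pig, black lines are means over 3 pigs and grey lines join the means. HCRTR2 is higher in the low group in males and lower in females without overlap, and the 2 MCHR1 probe sets show different patterns.

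HCRT and PMCH varied more between pigs than most transcripts of like signal, PMCH the most. After sex and feed efficiency were fitted, the SD between pigs was 0.36 for the first and 0.43 for the second PMCH probe set, larger than for 97.4% and 96.3% of probe sets with a mean within 0.5. The highest pig exceeded the lowest 2.23-fold and 2.44-fold at these probe sets. HCRT had an SD of 0.22, larger than for 87.7% of probe sets of like mean, and a highest to lowest ratio of 1.59. The receptors did not stand apart in this way: the shares with a smaller SD were 54.4% for HCRTR1, 40.2% for HCRTR2, and 15.3% and 71.1% for the MCHR1 probe sets. For QRFP they were 34.0% and 29.6%.

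The PMCH spread rested largely on replicate 6 of each group. Without these 2 females the SDs over 10 pigs were 0.18 and 0.23, larger than for 76.0% and 79.1% of probe sets of like mean, and the highest to lowest ratios were 1.38 and 1.64. Over the same 10 pigs HCRT had an SD of 0.19, larger than for 82.1% of probe sets of like mean. The HCRT signals of the same pigs were 8.31 in high replicate 6 and 7.91 in low replicate 6, so PMCH was low in both while HCRT was lowest in 1 of them. Of 14 lists of markers for neighbouring nuclei and cell types, the thalamus list had both pigs among the 3 highest of 12, at mean log2 signals of 7.27 and 7.07, and the suprachiasmatic list had both among the 3 lowest, at 4.06 and 4.26. All 5 thalamic markers and 3 of 4 suprachiasmatic markers were tested. Of these, 3 of the 5 thalamic and all 3 suprachiasmatic markers had signals within the background range. Over the other pigs the thalamus list ran from 6.90 to 7.24. With 14 lists looked at, some can place both pigs at an edge by chance, and that share was not computed. The part of these lists in the PMCH values was not tested.

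The 2 PMCH probe sets followed each other closely across pigs. Their Pearson r was 0.92 over 12 pigs (Spearman's rho 0.89; permutation p 0.00017 and 0.00033; p adjusted over the 3 pairs of probe sets of 1 gene 0.00051). Without the 2 pigs farthest from the median, again replicate 6 of each group, r was 0.77 (permutation p 0.00973). The MCHR1 pair had r 0.23 (rho 0.11; permutation p 0.480 and 0.734; r 0.43 without the 2 farthest pigs), and the QRFP pair had r 0.35 (rho 0.30; permutation p 0.269 and 0.342; r 0.12 without the 2 farthest pigs). All 4 of these MCHR1 and QRFP probe sets lay within the background range.

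HCRT and PMCH, whose neurons share the lateral hypothalamus, showed no detectable covariation across the 12 pigs. Taking each gene by its probe set of higher mean, r was 0.26 (95% interval -0.37 to 0.73; permutation p 0.419) and rho was 0.37 (permutation p 0.238). Adjusted over the 15 pairs of the 6 genes, p was 0.815. Without low replicates 1 and 6, the pigs farthest from the HCRT median, r was 0.12. The value was not alike within groups: r was 0.03 among high and 0.56 among low pigs, -0.35 in males and 0.65 in females (n = 6 each), and -0.31 over the 8 pigs of the lower run of identifiers. With sex and feed efficiency means removed, r was 0.36. For scale, 80.3% of all other probe sets tested had a lower r with HCRT than PMCH had, all from the same 12 arrays.

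The ligand and receptor pairs did not covary detectably either. HCRT had r -0.21 with HCRTR1 (rho -0.19; permutation p 0.525 and 0.558) and r 0.24 with HCRTR2 (rho 0.24; permutation p 0.451 and 0.442). Without low replicates 1 and 6 these became -0.34 and -0.04. The HCRT and HCRTR2 values had r 0.85 in the high group and 0.09 in the low group (n = 6 each), and the difference between these was not tested. PMCH and MCHR1 had r -0.17 (rho -0.02; permutation p 0.597 and 0.956), and r 0.41 without replicate 6 of each group. In the lower run of identifiers (n = 8) these 3 pairs had r -0.46, 0.13 and 0.58.

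With each gene taken by its probe set of higher mean, r over all 15 pairs of the 6 genes ran from -0.39 for HCRT with MCHR1 to 0.50 for MCHR1 with QRFP. No pair passed, and 0 of 15 had an unadjusted permutation p under 0.05 for r. The smallest, for MCHR1 with QRFP, was 0.0903 (rho 0.59 with permutation p 0.0494; r 0.43 without low replicates 5 and 6; adjusted p 0.815). With sex and feed efficiency means removed, HCRT with MCHR1 had r -0.65 (permutation p 0.0207, adjusted over the 15 pairs 0.310). At the second MCHR1 probe set this r was -0.07. With these means kept, HCRT and the first MCHR1 probe set had r -0.13 without low replicate 6, the pig lowest in HCRT and highest at that MCHR1 probe set. HCRTR2 had r -0.17 with the first and -0.66 with the second MCHR1 probe set. Averaging a gene's probe sets gave HCRTR2 with MCHR1 r -0.62 (permutation p 0.0304, adjusted over the 15 pairs 0.456).

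**Figure D5:**
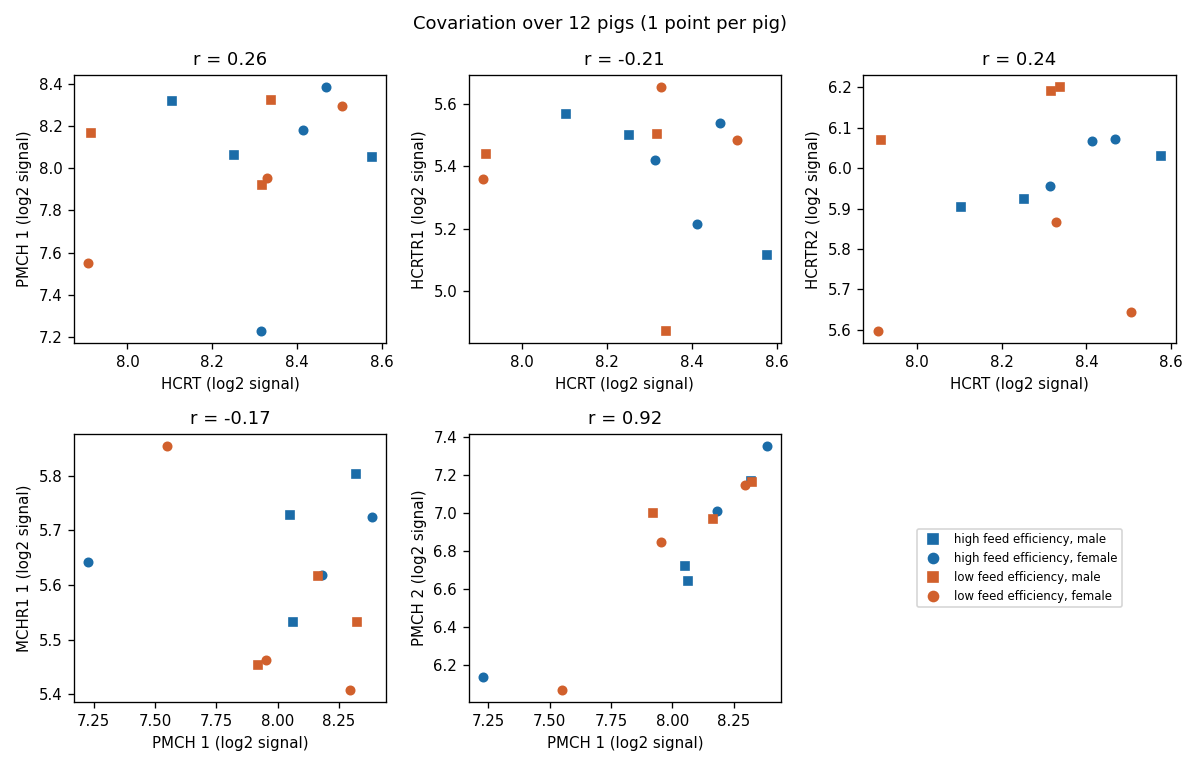
Log2 array signals of 2 probe sets against each other, 1 point per pig, for HCRT with PMCH, HCRT with each orexin receptor, PMCH with MCHR1, and both PMCH probe sets (colour, feed efficiency; squares, males; circles, females; axis ranges differ). Only the last panel shows a close relation, with r 0.92, and 2 females lie low in it.

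None of the other transcripts that orexin and MCH neurons are reported to make followed HCRT or PMCH detectably. Of these, 3 of the 7 tested for orexin neurons and 3 of the 5 tested for MCH neurons had signals within the background range. Across 12 pairs with such genes, 0 passed adjustment and 0 had an unadjusted permutation p under 0.05 for r, and r ran from -0.52 to 0.47. PDYN, the dynorphin precursor that orexin neurons co-release, had a mean log2 signal of 8.55 and r 0.43 with HCRT (rho 0.29; permutation p 0.167 and 0.356; r 0.33 without the 2 farthest pigs). CARTPT, whose peptide many MCH neurons contain in rodents, had a mean of 9.20 and r -0.32 with PMCH (rho -0.57; permutation p 0.277 and 0.0544; r -0.38 without the 2 farthest pigs). Both genes are also made in other hypothalamic neurons.

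Genes that act with or downstream of these peptides did not pass the test between the feed efficiency groups either. Of 62 genes in 7 lists, 51 were tested, 0 passed adjustment in limma and 5 (9.80%) had an unadjusted p under 0.05, beside 6.15% of all probe sets. The 5 were GNAO1, DBH, QPCT, NPTXR (-0.19 ± 0.07, SE) and CHAT (-0.18 ± 0.08, SE), all lower in the low group. Of these 51, 26 were higher and 25 lower in the low group, with a median of 0.01. Among partner receptors, QRFPR, the receptor of the QRFP peptide, had, at the probe set of higher mean, 4.81 ± 0.22 in pigs of high and 4.55 ± 0.22 in pigs of low feed efficiency (SD, n = 6 each). At its other probe set the order was the opposite, 3.82 ± 0.19 and 4.02 ± 0.10 (SD, n = 6 each).

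Of 13 genes through which orexin receptors act, 9 had signals within the background range, PLCB4 included. In the low group 11 of the 13 had a higher mean, with a median of 0.04. They included GNAQ, the G protein subunit that couples these receptors to phospholipase C (0.11 ± 0.08, SE), and the phospholipase gene PLCB4 (0.13 ± 0.08, SE). All 5 neuron markers also had a higher mean in the low group, with a median of 0.09. Among them ELAVL4 had 0.33 ± 0.12 (SE; unadjusted p 0.0145, adjusted p 0.775 by limma). The part of these markers in the count of 11 was not tested. Of 10 genes of MCHR1 signalling, 7 had a lower mean, with a median of -0.10, and 5 had signals within the background range. GNAO1, an inhibitory G protein subunit, had a difference of -0.20 ± 0.09 (SE; unadjusted p 0.0399, adjusted p 0.799 by limma). None passed, and these counts describe genes of 1 list in the same 12 pigs.

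Of 10 tested genes from a list for arousal neurons that orexin excites, 7 had a lower mean in the low group, with a median of -0.18. Signals of 9 of the 10 lay within the background range, the 3 named here included. Which cells of the tissue gave these signals was not tested. HDC had a difference of -0.37 ± 0.18 (SE; adjusted p 0.813 by limma), and HRH3, the histamine autoreceptor, had -0.19 ± 0.09 (SE; adjusted p 0.813 by limma). DBH, which makes noradrenaline, had -0.27 ± 0.11 (SE; adjusted p 0.799 by limma). Of 4 genes of propeptide processing, 2 had a higher and 2 a lower mean in the low group. QPCT, which forms the pyroglutamate end that orexin A carries, had -0.29 ± 0.11 (SE; adjusted p 0.796 by limma). Its signal was within the background range. PCSK2, a prohormone convertase, had -0.05 ± 0.08 (SE; adjusted p 0.919 by limma). SCG5 had 0.11 ± 0.07 and CPE 0.02 ± 0.06 (SE; adjusted p 0.830 and 0.960 by limma).

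For each gene, the 5 named probe sets with the most similar pattern over the 12 pigs, after sex and feed efficiency means were removed, had r between 0.87 and 0.94. They were NAA15, NOTCH2, PTDSS1, MLLT6 and APOA2 for HCRT, and PKIG, NANOS2, MYCT1, TRAIP and LIM2 for PMCH. They were CSMD2, HPSE, MARK1, KIAA1324 and GPR56 for HCRTR1, and COPS5, IBTK, EHD3, ANAPC2 and SLMAP for HCRTR2. They were GATA4, CCDC155, WNT1, DNAJC5 and GULO for MCHR1, and ZBP1, PAOX, DPM1, ZCWPW1 and COBL for QRFP. All but GPR56, COPS5 and DNAJC5 lay within the background range. The second PMCH probe set had r 0.92 with the first by the same measure, and none of the named genes was another member. They were picked as the highest values among probe sets with a symbol, out of 35790 values over 12 shared arrays, and are given as a description.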

How the data were processed

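The authors deposited 1 table of 47845 probe sets by 12 arrays. The deposited values were taken as log2 from their range; the submitters' processing notes name GCOS version 1.1.1, and background correction, summary and normalization were not given in the sources used here. Symbols came from the platform annotation (26426 probe sets with 1 symbol, 0 with several, 21419 with none). In the RefSeq annotation of Sscrofa11.1, HCRT overlaps GHDC, PMCH overlaps PARPBP and MCHR1 overlaps MKL1, and the strand of the probes was not analysed here.

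Control rows (123) and the dimmest 25% of the rest were left out. In R version 4.3.3, limma version 3.58.1 (lmFit, eBayes) tested low minus high feed efficiency with sex as a term, sex with feed efficiency as a term, and, in a fit of 4 groups, both sexes separately and the interaction, with Benjamini-Hochberg adjustment over 35791 probe sets and a threshold of 0.05. The fits were tested on simulated data. Correlations over 12 pigs used 100000 permutations, two-sided. Correlations with other neuronal genes and the marker lists in replicate 6 were chosen after values were seen. The members and lists were chosen with earlier results of these data known. Named genes are all members, the 5 most alike for each gene, and, of each list, some of the 4 genes with the smallest unadjusted p. Those named after their values were seen were OXT, AVP, CRH, SIM1, AGRP, NPY, TAC3, TCF7L2, PRKCD, PDYN, CARTPT and, for the interaction, HDC. Replicate numbers follow accession order, and the labels name no pairs of pigs. Alternatives were other filters, normalizations, limma settings, covariates, averaging a gene's probe sets and leaving out each pig. Plots used matplotlib version 3.10.9.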

Additional observations from a re-analysis of the deposited data

Results flagged for a closer look

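At the first PMCH probe set (SNOWBALL_007551_st), high feed efficiency replicate 6 lay far below the other 5 pigs of its group, at a log2 signal of 7.23. At the second (SNOWBALL_022668_st), low feed efficiency replicate 6 lay far below its group, at 6.07. At the first QRFP probe set (SNOWBALL_003620_st), low feed efficiency replicate 3 lay below its group, at 4.41. These were 3 of 18 sets of 6 values examined with Dixon's criterion, which by chance marks about 1 in 20.

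The HCRTR2 (SNOWBALL_001447_st) feed efficiency groups lay apart in opposite directions in males and females, without overlap, with an interaction of -0.53 on the log2 scale, whose adjusted p was 0.779 by limma.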

How the results depend on the processing

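No member passed the threshold under any alternative: of 345 recomputed member values, 324 kept their direction and 21 changed it, all of them feed efficiency differences of HCRTR1, PMCH or the second MCHR1 probe set. With equal array medians HCRTR1 had a feed efficiency difference of 0.014 and the first PMCH probe set 0.019. With array weights HCRTR1 had 0.0024, and averaging a gene's probe sets gave PMCH 0.011. Leaving out 1 pig at a time, HCRTR1 ranged from -0.060 to 0.094, the PMCH probe sets from -0.16 to 0.10 and from -0.11 to 0.18, and the second MCHR1 probe set from -0.18 to 0.031. HCRT ranged from -0.19 (without low replicate 5) to -0.06 (low replicate 6), HCRTR2 from -0.10 (high replicate 1) to -0.011 (low replicate 6), the first MCHR1 probe set from -0.19 (low replicate 6) to -0.09, and the QRFP probe sets from -0.17 to -0.025 (low replicate 3) and from -0.18 (high replicate 3) to -0.045 (low replicate 5). The correlation of HCRT with HCRTR2 then ranged from -0.14 to 0.51, that of PMCH with MCHR1 from -0.32 to 0.084, and that of HCRT with PMCH from 0.02 to 0.43. The cause was not tested.

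Over all probe sets, the count for feed efficiency was 0 with all pigs and 0 to 1 with 1 pig left out, the 1 being without low replicate 2. The count for sex was 8, and it was 2 with a filter on the dimmest 50%, 5 with the run of identifiers as a term and 0 with probe sets of a gene averaged. Averaging was by gene symbol and tested 12609 values in place of 35791 probe sets, so its counts are not for the same set. The count within males was 3. It was 0 without a filter, 1 with the 50% filter, 0 with array weights and 0 to 1 with any 1 pig left out. The stricter filter removed the second QRFP probe set. A replicate block gave a count of 0 for feed efficiency and changed no call. Same-numbered pigs correlated between -0.00 and 0.09, 0 of 6 above 0.1, and 3 of 6 matched their own number best. With so few pigs of each sex per group, this check cannot show whether the numbers pair the pigs. The number of arrays limits the precision.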
